A study of Mus musculus with 12 samples.

Results

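The 8 genes Egr1, Egr2, Ier2, Ier3, Ier5, Nr4a1, Nr4a2 and Myc are immediate early genes that lie outside the AP-1 family. They were taken as every probe set that the platform annotation assigns to a single one of these symbols, which gave 12 of the 22516 probe sets on the array. A probe set is a group of short oligonucleotides that are read together as 1 value. All 8 genes were present, among 12336 named genes in all, and 10 of the 12 probe sets were bright enough to be tested. A gene with several probe sets is represented by its brightest one, and every representative was among the 10.

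RNA was measured in the whole pancreas on 12 arrays, 1 per pancreas, with 3 male mice of 2 to 4 months in each of 4 groups. The groups were Mist1KO mice given caerulein, Mist1KO mice given saline, C57BL6 wild type (WT) mice given caerulein and WT mice given saline. Injections were hourly for 4 hours and the pancreas was taken at the end of them. None of the sources used here gives the caerulein dose, how the Mist1 allele was made or the strain of the Mist1KO mice. Caerulein is a cholecystokinin analogue that stimulates the enzyme-secreting acinar cells. Mist1, encoded by Bhlha15, is a transcription factor of those cells.

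Immediate early genes are transcribed within minutes of a stimulus, without new protein synthesis, because the factors that switch them on are already present in the cell. Growth factors and hormones that raise calcium act through the ERK kinase cascade on the serum response factor SRF and its ETS partners, and through calcium and cyclic AMP on CREB. Their mRNAs are mostly short-lived. In the pancreas, cholecystokinin and its analogues are known to induce several of them in acinar cells.

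The representative genes lie at separate places in the genome (GRCm38.p6). Egr1 is on chromosome 18 from 34861207 to 34864956, Egr2 on chromosome 10 from 67534469 to 67542188, Nr4a1 on chromosome 15 from 101253902 to 101274795 and Nr4a2 on chromosome 2 from 57106830 to 57124003. Myc is on chromosome 15 from 61985341 to 61990361, Ier2 on chromosome 8 from 84661331 to 84662852, Ier3 on chromosome 17 from 35821713 to 35822911 and Ier5 on chromosome 1 from 155096367 to 155099636.

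On its brighter probe set Bhlha15 read 42.6, 38.3 and 79.4 on the Mist1KO caerulein arrays and 89.9, 95.9 and 106.8 on the Mist1KO saline arrays, all below the lowest WT value of 729.5. Its further probe set showed a smaller gap, with 56.7 to 82 on the Mist1KO arrays and 178.4 to 400.1 on the WT arrays. Whether either probe set reads the deleted part of the gene was not checked. The array labelled Mist1KO caerulein replicate 3 stood apart in its group. On it the 12 acinar marker genes that were on the array summed to a signal of 113200, while replicates 1 and 2 had 85690 and 74200, and its 50 brightest probe sets took 11.4% of the signal, where the others had 9.33% and 8.39%. WT caerulein replicate 3 differed from its group on the same measures, with a sum of 203100 against 146500 and 162100. Its 50 brightest probe sets took 17.2%, against 14.1% and 15%. Acinar marker sums were 128000 to 149400 on the Mist1KO saline arrays, 146500 to 203100 on the WT caerulein arrays and 177500 to 225700 on the WT saline arrays. The markers of neutrophils and macrophages, 11 of 12 on the array, summed to 1612 to 1799, 1190 to 1890, 1156 to 1553 and 1643 to 2212 in the order Mist1KO caerulein, Mist1KO saline, WT caerulein, WT saline. In whole tissue, fewer cells of a type and less RNA per cell cannot be told apart, and the part of cell makeup in the results was not tested. Mist1KO caerulein replicate 3 also lay nearest to saline in its group for most members, as given below. Results that rest on it are therefore given with and without it.

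Caerulein raised Egr1, Ier3 and Ier5 in the Mist1KO pancreas, and raised these and Ier2, Nr4a1 and Myc in the WT pancreas. A gene is said to rise or fall where limma's moderated test, adjusted by the Benjamini-Hochberg method over 15716 probe sets, gave p under 0.05. In Mist1KO 3 of 8 members rose and 0 fell, where 10.5% of all probe sets tested were called higher and 13.4% lower. In WT 6 of 8 rose and 0 fell, where 9.19% of all probe sets were called higher and 9.74% lower. Without Mist1KO caerulein replicate 3, 5 members rose and 1 fell in Mist1KO. The 1 that fell was Nr4a2 on its brightest probe set. Its further probe set had a log2 difference of 0.26 there (adjusted p = 0.454). Of the 12 acinar markers, 10 fell after caerulein in Mist1KO and 3 in WT, and 0 rose. The members' median log2 difference between caerulein and saline was 0.47 in Mist1KO and 2.07 in WT, beside -0.14 and -0.16 over the 9477 named genes tested. The Mist1KO median rests on Mist1KO caerulein replicate 3. It lies between Nr4a1 (0.35) and Ier2 (0.60), which were at 0.80 and 1.07 without that array. Differences are on the log2(signal + 18.7) scale, which understates changes of dim genes.

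**Figure D1:**
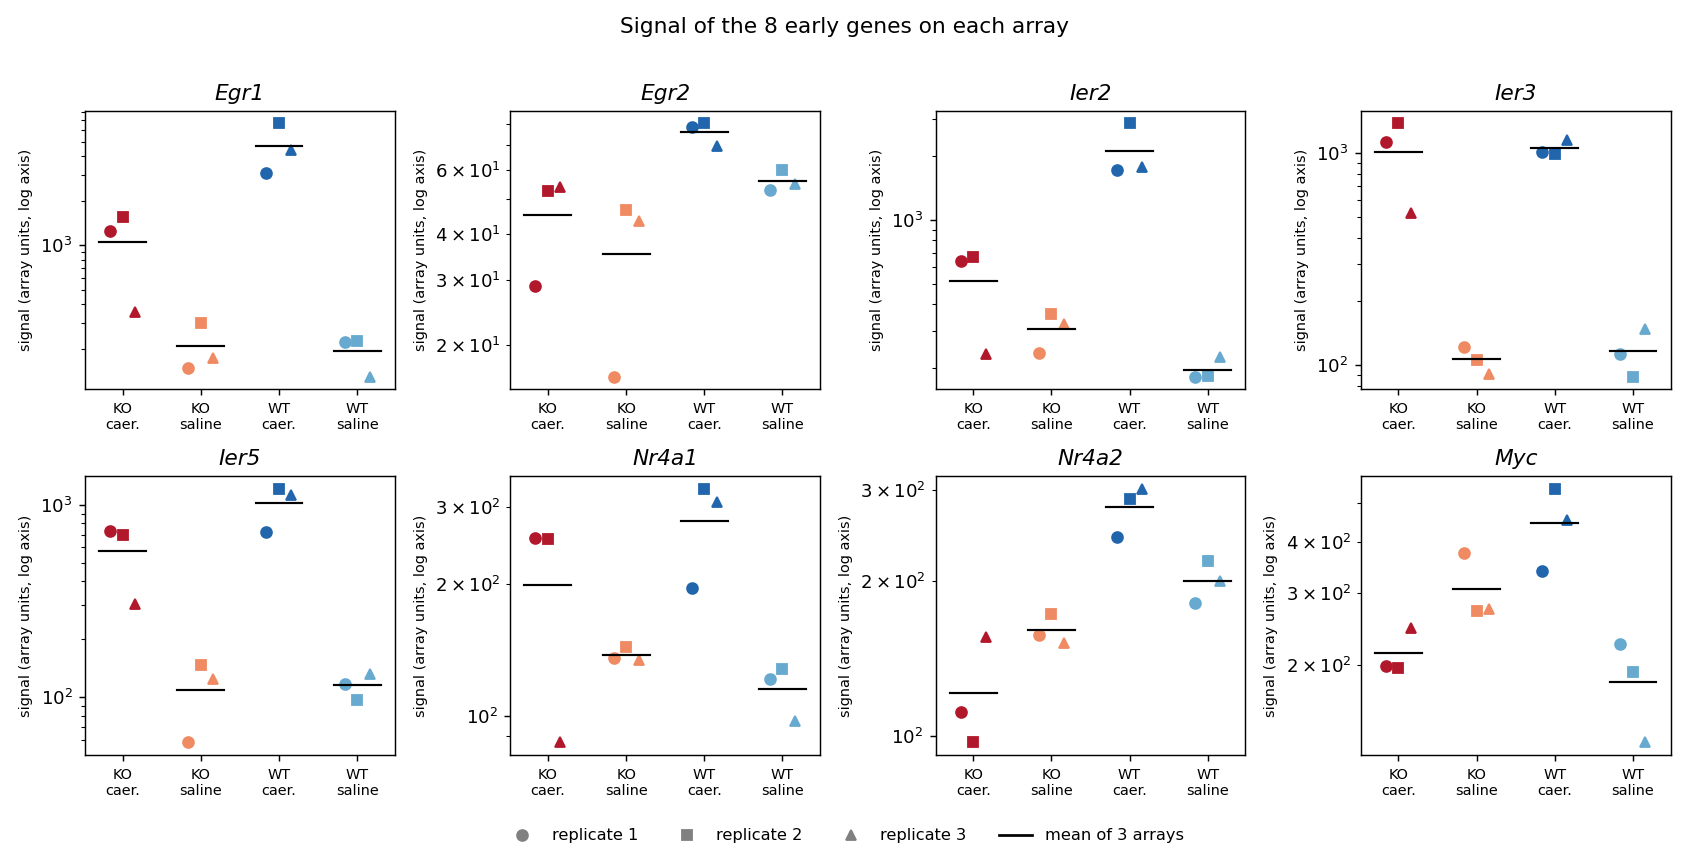
Signal in array units (vertical log axis, a separate range for each gene) of the representative probe set of each of the 8 genes on all 12 arrays, by group. Symbols mark the replicate number and bars the mean of 3 arrays; Egr1 on the WT caerulein arrays spans 3069.9 to 6655.1, above all 9 other arrays, while Mist1KO caerulein replicate 3 lies at 352.3.

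Egr1, a zinc finger transcription factor and a common readout of ERK activity, had the largest response of the 8 genes in WT. Its signal was 1243.6, 1545.2 and 352.3 on the Mist1KO caerulein arrays, against 148.4, 299.9 and 173.8 on the Mist1KO saline arrays. The groups did not overlap, and replicate 3 lay nearest to the saline arrays. Egr1 rose 4.15-fold in Mist1KO (log2 difference 2.05 ± 0.45, SE, n = 3 per group, limma adjusted p = 0.0041), and the difference was 2.69 without replicate 3 (adjusted p = 7.59e-05). In WT it read 3069.9, 6655.1 and 4397.4 after caerulein, against 223.5, 224 and 129.2 after saline, with no overlap and a difference of 4.45 ± 0.45 (adjusted p = 1.3e-05). The order of group means was WT caerulein (4707 ± 1810, SD, n = 3), Mist1KO caerulein (1047 ± 620), Mist1KO saline (207.4 ± 81.1) and WT saline (192.2 ± 54.6), and the last 2 groups overlapped.

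Egr2, a related zinc finger factor best known from the myelinating cells of nerves, was dim and did not pass in any comparison. It read 29, 52.5 and 53.9 on the Mist1KO caerulein arrays, against 16.4, 46.5 and 43.5 on the Mist1KO saline arrays, which overlap. It read 78.3, 80.1 and 69.3 on the WT caerulein arrays, against 52.8, 60 and 54.7 on the WT saline arrays, which do not overlap. The caerulein differences were 0.26 ± 0.28 in Mist1KO (adjusted p = 0.542) and 0.34 ± 0.28 in WT (adjusted p = 0.416). The WT caerulein arrays were the 3 highest of the 12. Its further probe set ranged from 0.6 to 26.6 over the 12 arrays and was too dim to test.

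A promoter window of Egr2 shows the kind of elements through which this gene class is known to be switched on, and is printed for that reason. The 300 bases end 50 bases past a start site and come from RefSeq (GRCm38.p6, chr10:67537620-67537919, plus strand), which has 5 such windows for Egr2, several of them overlapping. Capitals mark, 5′ to 3′, a TGACG match, the CArG box bound by SRF, and a second TGACG match on the other strand, TGACG being the core of the CREB element.
Egr2: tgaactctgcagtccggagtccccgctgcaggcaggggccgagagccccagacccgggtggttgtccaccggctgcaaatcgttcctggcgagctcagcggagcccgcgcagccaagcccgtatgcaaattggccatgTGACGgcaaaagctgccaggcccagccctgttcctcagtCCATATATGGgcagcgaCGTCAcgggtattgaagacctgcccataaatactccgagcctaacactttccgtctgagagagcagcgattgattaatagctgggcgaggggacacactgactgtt
The CArG box starts at base -73 from the start site and the TGACG matches at -112 and -56. A CArG box was found on either strand in 1.63% of 32841 promoter windows of this length and TGACG in 20.8%. These shares are per window, while Egr2 had 5 windows to choose from. Its window at chr10:67535249-67535548 held none of the motifs sought. The one at chr10:67537316-67537615 held a CArG box and no TGACG. RefSeq windows were at hand for 5 of the 8 genes, Egr2, Ier3, Ier5, Nr4a1 and Nr4a2, and not for Egr1, Ier2 and Myc.

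Nr4a1 and Nr4a2 encode orphan nuclear receptors, which act without a known hormone and are regulated mainly through their own transcription. Nr4a1, also called Nur77, read 254.5, 253.5 and 87.1 on the Mist1KO caerulein arrays, against 135.7, 143.5 and 134.2 on the Mist1KO saline arrays. Replicates 1 and 2 lay above all saline arrays and replicate 3 below them, so the groups overlapped and the difference of 0.35 ± 0.31 did not pass (adjusted p = 0.458). Without replicate 3 it was 0.80 (adjusted p = 0.0129). In WT, Nr4a1 read 195.5, 329.3 and 307.6 after caerulein, against 121.3, 127.6 and 97.3 after saline. It rose 2.17-fold there (1.12 ± 0.31, adjusted p = 0.0198), a call that ended without WT saline replicate 3, WT caerulein replicate 2 or WT caerulein replicate 3 (adjusted p = 0.0655, 0.0727 and 0.072).

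Nr4a2, also called Nurr1 and known for its need in dopamine neurons, lay lower after caerulein than after saline in Mist1KO on its brightest probe set, without passing the test. It read 111.3, 97.1 and 155.3 on the Mist1KO caerulein arrays, against 157.1, 172.1 and 151.5 on the Mist1KO saline arrays. Only replicate 3 overlapped the saline arrays, and the difference was -0.37 ± 0.17 (adjusted p = 0.126), or -0.54 without replicate 3 (adjusted p = 0.0259). In WT it read 243.3, 288.1 and 302 after caerulein, against 180.9, 218.5 and 199.4 after saline, without overlap. That difference of 0.44 ± 0.17 did not pass (adjusted p = 0.0836), and passed after quantile normalization (adjusted p = 0.0401), with arrays centred on the median (adjusted p = 0.0293) and without Mist1KO caerulein replicate 3 (adjusted p = 0.048). Its further probe set gave 0.13 ± 0.21 in Mist1KO (adjusted p = 0.711) and 0.53 ± 0.21 in WT (adjusted p = 0.103), so the 2 probe sets differ in sign in Mist1KO. They also did so without Mist1KO caerulein replicate 3, where the further probe set was at 0.26 in Mist1KO (adjusted p = 0.454).

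The promoters of these receptors are shown because Nr4a1 rose in WT and Nr4a2, of the same family, did not pass. Both come from RefSeq (GRCm38.p6), Nr4a1 from chr15:101266596-101266895 on the plus strand and Nr4a2 from chr2:57123954-57124253 on the minus strand, each read 5′ to 3′ along its gene. Capitals mark TGACG on either strand, written CGTCA where it is on the other one.
Nr4a1: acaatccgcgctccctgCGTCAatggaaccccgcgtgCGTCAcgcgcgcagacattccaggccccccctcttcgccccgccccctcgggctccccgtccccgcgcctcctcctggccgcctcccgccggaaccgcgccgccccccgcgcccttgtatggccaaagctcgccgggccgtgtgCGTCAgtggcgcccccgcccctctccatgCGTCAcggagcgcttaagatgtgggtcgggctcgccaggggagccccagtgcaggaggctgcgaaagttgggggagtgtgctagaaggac
Nr4a2: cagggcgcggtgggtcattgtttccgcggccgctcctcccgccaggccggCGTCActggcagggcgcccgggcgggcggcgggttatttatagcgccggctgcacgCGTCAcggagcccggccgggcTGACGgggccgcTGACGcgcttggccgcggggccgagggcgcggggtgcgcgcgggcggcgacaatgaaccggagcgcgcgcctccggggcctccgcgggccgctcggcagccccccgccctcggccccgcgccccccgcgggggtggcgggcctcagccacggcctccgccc
Each window holds 4 TGACG matches, at bases -233, -213, -69 and -40 in Nr4a1 and at -200, -144, -123 and -111 in Nr4a2. Each also holds 1 match to GCGNGGGCG, the site that EGR factors bind, at -60 in Nr4a1 and at -74 in Nr4a2, where 5.55% of all windows hold one. The full element TGACGTCA, which contains TGACG, was in none of the members' windows and in 1.79% of all windows. CCGGAA, an ETS factor core, was found in Nr4a1, in another window of Egr2 and in 14.9% of all windows, and TATAAA in Nr4a2 and in 13.6%. A match is only a match of letters.

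Myc, the growth-promoting transcription factor that pairs with MAX, rose after caerulein in WT and not in Mist1KO. It read 198.3, 197 and 246.7 on the Mist1KO caerulein arrays, against 375.8, 271.1 and 274 on the Mist1KO saline arrays. All caerulein arrays lay below all saline arrays, but the difference of -0.48 ± 0.21 did not pass (adjusted p = 0.124). In WT it read 339.2, 540.9 and 454.7 after caerulein, against 225.1, 191.6 and 129.2 after saline. There all caerulein arrays lay above all saline arrays, and Myc rose 2.32-fold (1.22 ± 0.21, adjusted p = 0.0011). The group means ran from WT caerulein (444.9 ± 101, SD, n = 3) through Mist1KO saline (307 ± 59.6) and Mist1KO caerulein (214 ± 28.3) to WT saline (182 ± 48.7). WT caerulein and Mist1KO saline overlapped, as did Mist1KO caerulein and WT saline.

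**Figure D2:**
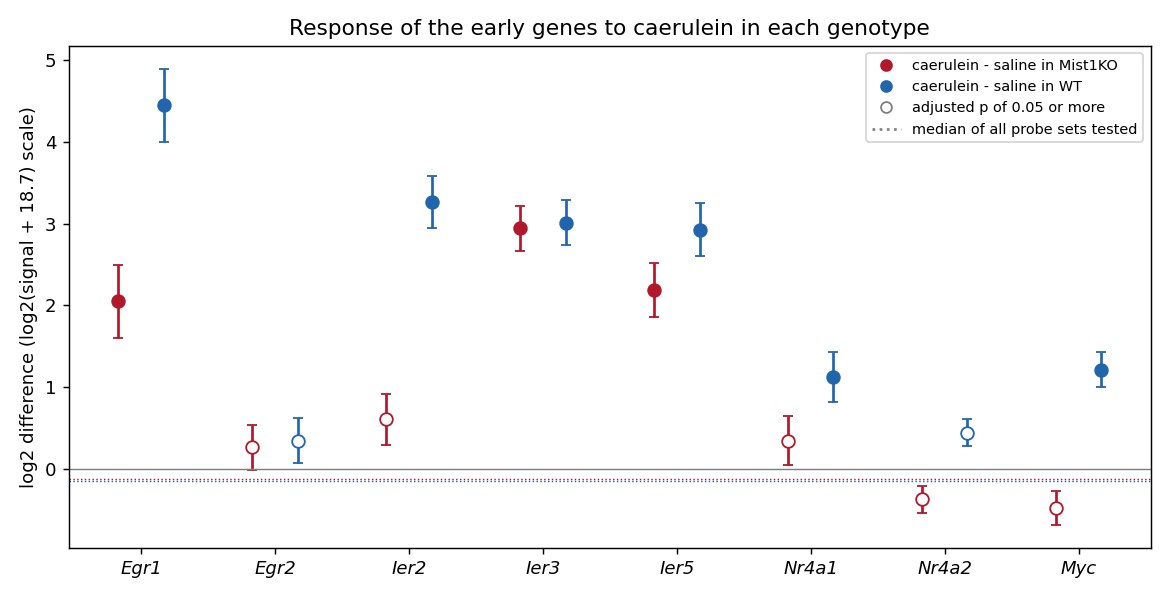
Log2 difference between caerulein and saline (vertical axis, log2(signal + 18.7) scale) for each gene in Mist1KO and in WT, with bars of 1 SE and n = 3 arrays per group. Filled points passed the test, dotted lines mark the median of all probe sets tested; Ier3 stands at 2.94 in Mist1KO and 3.01 in WT, while Egr1 stands at 2.05 and 4.45.

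The Ier genes are named for their early response. Ier2 is a nuclear protein of the early growth factor response, Ier3 (IEX-1) is a stress-induced regulator of cell survival, and Ier5 is a relative of Ier2 linked to the heat shock factor HSF1. Ier3 rose by nearly the same amount in both genotypes. It read 1133.4, 1385.7 and 520.9 on the Mist1KO caerulein arrays, against 122, 106.2 and 90.8 on the Mist1KO saline arrays. It read 1018.1, 993.2 and 1158 on the WT caerulein arrays, against 113.4, 88.1 and 148.4 on the WT saline arrays. Neither pair overlapped, and the lowest caerulein array of all was again Mist1KO replicate 3. Ier3 rose 7.68-fold in Mist1KO (2.94 ± 0.28, adjusted p = 4.95e-06) and 8.06-fold in WT (3.01 ± 0.28, adjusted p = 6.05e-06).

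Ier5 rose in both genotypes as well. It read 727.7, 697.5 and 304.2 on the Mist1KO caerulein arrays, against 58.4, 146.6 and 124 on the Mist1KO saline arrays, and rose 4.56-fold (2.19 ± 0.33, adjusted p = 0.000254). It read 725.1, 1210 and 1120.6 on the WT caerulein arrays, against 117.4, 96.6 and 131.5 on the WT saline arrays, and rose 7.62-fold (2.93 ± 0.33, adjusted p = 3.37e-05). Its 2 dimmer probe sets did not say the same thing. One, too dim to test, read 101.1, 108.2 and 11.3 on the Mist1KO caerulein arrays against 9.3, 11.3 and 5.8 after saline, and 50, 140.5 and 114.6 on the WT caerulein arrays against 14.9, 17.3 and 14 after saline. The other showed no call, at -0.17 ± 0.27 in Mist1KO (adjusted p = 0.698) and 0.21 ± 0.27 in WT (adjusted p = 0.619), with signals of 18.3 to 70.2 over all arrays.

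Ier2 had the largest interaction of the 8 genes. It read 641, 668.5 and 234.4 on the Mist1KO caerulein arrays, against 235.5, 359 and 321.7 on the Mist1KO saline arrays. Replicates 1 and 2 lay above the saline arrays and replicate 3 just below them, and the difference of 0.60 ± 0.32 did not pass (adjusted p = 0.196). Without replicate 3 it was 1.07 (adjusted p = 0.00322). It read 1723, 2849.4 and 1772.6 on the WT caerulein arrays, against 182.3, 183.3 and 226.2 on the WT saline arrays, and rose 9.65-fold (3.27 ± 0.32, adjusted p = 9.15e-06).

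The promoters of Ier3 and Ier5 are shown as those of the 2 members with sequence at hand that rose in both genotypes. They are RefSeq windows of GRCm38.p6, Ier3 from chr17:35821463-35821762 on the plus strand and Ier5 from chr1:155099587-155099886 on the minus strand. None of the 6 motifs named above was found on either strand, so neither has capitals.
Ier3: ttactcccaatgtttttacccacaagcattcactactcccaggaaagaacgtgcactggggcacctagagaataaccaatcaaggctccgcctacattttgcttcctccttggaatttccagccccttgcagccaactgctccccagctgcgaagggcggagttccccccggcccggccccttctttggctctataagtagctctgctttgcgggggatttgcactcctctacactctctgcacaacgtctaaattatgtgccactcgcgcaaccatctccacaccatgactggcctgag
Ier5: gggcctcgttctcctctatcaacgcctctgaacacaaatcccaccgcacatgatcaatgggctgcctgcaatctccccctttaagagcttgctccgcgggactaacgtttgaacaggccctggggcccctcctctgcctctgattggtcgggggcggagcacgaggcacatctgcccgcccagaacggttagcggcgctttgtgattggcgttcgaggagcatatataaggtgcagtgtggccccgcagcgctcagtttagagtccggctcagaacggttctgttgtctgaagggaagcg
That says only that these letters are not in these windows.

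Mist1KO caerulein replicate 3 lay closest to the saline mean of its own genotype, of the 3 arrays, in 7 of the 8 genes. Set against the mean of the Mist1KO saline arrays, it stood at 0.77 on the log2 scale for Egr1, where replicates 1 and 2 stood at 2.54 and 2.85. For Nr4a1 it stood at -0.56, where the others stood at 0.80 and 0.80. For Nr4a2 and Myc, which were lower after caerulein on the other arrays, it stood at -0.04 and -0.28. Egr2 was the exception, at 0.48.

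**Figure D3:**
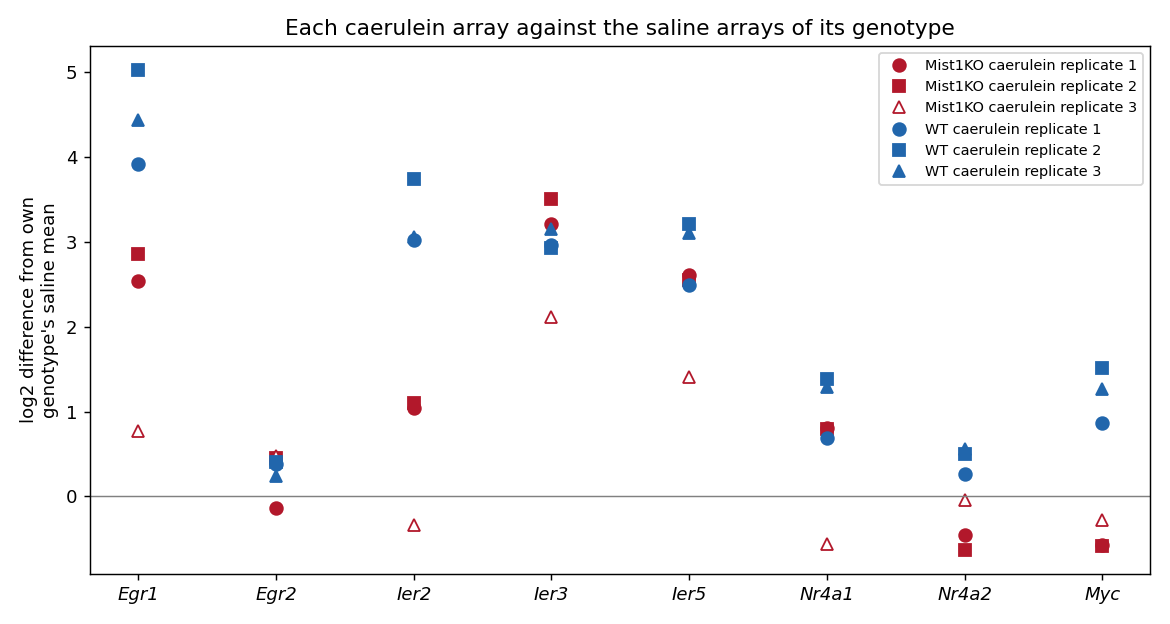
Log2 difference of each of the 6 caerulein arrays from the mean of the 3 saline arrays of its own genotype (vertical axis) for each gene. Open triangles mark Mist1KO caerulein replicate 3, which stands at 0.77 for Egr1 and 2.12 for Ier3 where replicates 1 and 2 stand at 2.54 and 2.85 and at 3.21 and 3.50.

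After caerulein, Egr1, Ier2, Nr4a2 and Myc were lower in Mist1KO than in WT. The comparison uses the same caerulein arrays as the responses above. In all, 4 of 8 members were lower and 0 higher, where 10.2% of all probe sets were called lower and 10.0% higher. Each of the 4 calls held in all 22 alternative analyses, leaving out any single array included. Egr1 was 4.99-fold lower (-2.32 ± 0.45, adjusted p = 0.00247) and Ier2 4.27-fold lower (-2.10 ± 0.32, adjusted p = 0.000455), and neither overlapped between the genotypes. Without Mist1KO caerulein replicate 3 these differences were -1.68 (adjusted p = 0.00397) and -1.62 (adjusted p = 0.000367). Nr4a2 was 2.14-fold lower (-1.10 ± 0.17, adjusted p = 0.000464), with -0.93 ± 0.21 on its further probe set (adjusted p = 0.00713), and Myc 1.97-fold lower (-0.98 ± 0.21, adjusted p = 0.00495).

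The other 4 genes did not pass after caerulein. Ier3 differed by -0.17 ± 0.28 between the genotypes (adjusted p = 0.719), with a 95% interval of -0.76 to 0.43. Ier5 differed by -0.86 ± 0.33 (adjusted p = 0.0806), Nr4a1 by -0.54 ± 0.31 (adjusted p = 0.237) and Egr2 by -0.59 ± 0.28 (adjusted p = 0.154). All 8 differences were negative, where 57.5% of the 9477 named genes were, but this rests on Mist1KO caerulein replicate 3. Without it Ier3 was at 0.25 (adjusted p = 0.419), Nr4a1 at -0.09 (adjusted p = 0.809) and Ier5 at -0.47 (adjusted p = 0.303). The acinar marker genes moved the same way, with 9 of 12 lower and 1 higher, and their part in the members' differences was not tested. Among markers of other cells, Krt19 of the 4 duct markers tested (mean signal 852.6 in Mist1KO and 335 in WT) and Jchain of the 6 lymphocyte markers (734.8 and 84.6) were called higher in Mist1KO. The lists did not move as a whole, with positive differences for 2 of the 4 duct and 4 of the 6 lymphocyte markers. Of the duct markers, Sox9 (126.1 in Mist1KO and 200.4 in WT) and Muc1 (1161 and 1433) had lower means in Mist1KO. Called lower in Mist1KO were 2 of 8 islet, 1 of 8 fibroblast and 1 of 6 endothelial markers, and 0 of 9 markers of neutrophils and macrophages were higher or lower. Over all probe sets tested 10.2% were called lower and 10.0% higher, so such small counts say little about these cell types. Some array measures moved with the groups too. The geometric mean of the spike-in controls was 408.4 to 513.1 on the Mist1KO caerulein arrays and 831.5 to 1443 on the WT caerulein arrays. The Actb 3′ to 5′ signal ratio, a sign of RNA quality, was 1.08 to 1.2 on the Mist1KO caerulein arrays and 1.28 to 1.4 on the WT caerulein arrays. It was 1.7 to 1.93 on the Mist1KO saline arrays and 1.46 to 1.66 on the WT saline arrays. The same ratio for Gapdh overlapped, at 0.918 to 1.02 on the Mist1KO caerulein arrays and 0.927 to 1.22 on the WT caerulein arrays. The part of these array measures in the differences was not tested.

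After saline, Myc alone of the 8 was called different between the genotypes. It read 375.8, 271.1 and 274 on the Mist1KO saline arrays, against 225.1, 191.6 and 129.2 on the WT saline arrays, and was 1.64-fold higher (0.71 ± 0.21, adjusted p = 0.0411). The groups did not overlap, but the call was lost in 12 of 22 alternative analyses, where the adjusted p reached 0.156. In all, 1 of 8 members was higher and 0 lower, where 6.84% of all probe sets were called higher and 5.74% lower. Ier2 lay higher on every Mist1KO saline array than on every WT saline array, at 0.57 ± 0.32, and did not pass (adjusted p = 0.256). Nr4a1 did so too, at 0.23 ± 0.31 (adjusted p = 0.659). Nr4a2 and Egr2 lay lower on every Mist1KO saline array, at -0.28 ± 0.17 (adjusted p = 0.282) and -0.51 ± 0.28 (adjusted p = 0.243), and did not pass. The share of all probe sets that lay apart in this way was not counted, so these separations are only a description. Egr1 differed by 0.08 ± 0.45 (adjusted p = 0.927) and Ier3 by -0.10 ± 0.28 (adjusted p = 0.849).

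**Figure D4:**
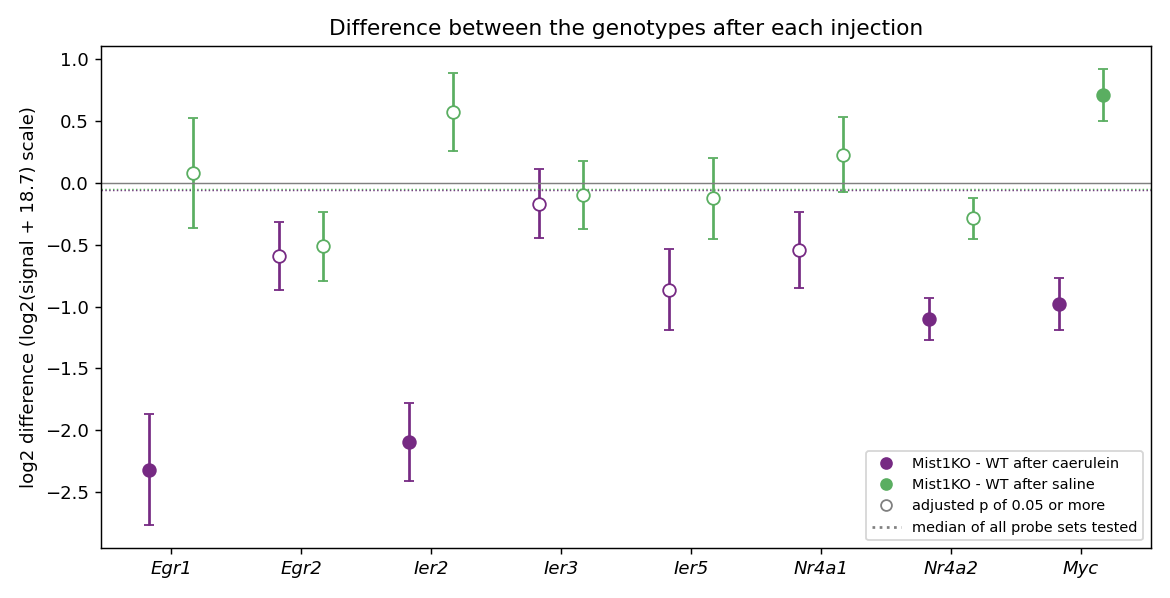
Log2 difference between Mist1KO and WT (vertical axis, log2(signal + 18.7) scale) for each gene after caerulein and after saline, with bars of 1 SE and n = 3 arrays per group. Filled points passed the test; after caerulein the 8 points lie from -0.17 for Ier3 to -2.32 for Egr1 (Ier3 is at 0.25 and Nr4a1 at -0.09 without Mist1KO caerulein replicate 3), and after saline Myc alone is filled, at 0.71.

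The test of the difference itself, the interaction of genotype and injection, passed for Ier2 and Myc. For Ier2 the log2 interaction was -2.67 ± 0.45 (limma adjusted p = 0.00622), a fold change 6.35-fold smaller in Mist1KO. For Myc the interaction was -1.69 ± 0.30 (adjusted p = 0.00774). Without Mist1KO caerulein replicate 3 they were -2.20 for Ier2 (adjusted p = 0.00288) and -1.79 for Myc (adjusted p = 0.0102). The Myc value combines genotype differences of -0.98 after caerulein and 0.71 after saline. The saline call was lost in 12 of 22 alternative analyses. So 2 of 8 members were called lower and 0 higher, where 1.78% of all probe sets were called lower and 1.51% higher. Egr1 had a similar size, at -2.40 ± 0.63, but a wider spread and did not pass (adjusted p = 0.0569). It passed in 6 of 21 alternatives and was at -1.76 (adjusted p = 0.0502) without Mist1KO caerulein replicate 3. Nr4a2 was at -0.81 ± 0.24 (adjusted p = 0.0832) and passed without that array (-0.98, adjusted p = 0.0278). Its further probe set was at -0.40 ± 0.30 (adjusted p = 0.569), and at -0.26 (adjusted p = 0.751) without that array. Nr4a1 was at -0.77 ± 0.43 (adjusted p = 0.399), Ier5 at -0.74 ± 0.46 (adjusted p = 0.469) and Egr2 at -0.08 ± 0.39 (adjusted p = 0.95). Without that array Nr4a1 was at -0.32 (adjusted p = 0.643) and Ier5 at -0.35 (adjusted p = 0.74). For Ier3 the interaction was -0.07 ± 0.39 (adjusted p = 0.956), with a 95% interval of -0.91 to 0.77, and 0.34 (adjusted p = 0.57) without that array.

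The remaining genes of the EGR and NR4A families and the NAB corepressors that bind EGR factors had no call between caerulein and saline in either genotype. Egr3 read 81.5, 94.9 and 42.1 on the Mist1KO caerulein arrays, against 34.2, 41.9 and 101.2 after saline, and did not pass in either genotype (0.28 ± 0.39, adjusted p = 0.653 in Mist1KO, -0.75 ± 0.39, adjusted p = 0.199 in WT). Egr4 did not respond past the threshold either, and was lower in Mist1KO than in WT after caerulein (58.2 ± 34.6 against 164.2 ± 9.9, SD, n = 3, -1.36 ± 0.32, adjusted p = 0.0081). It was lower after saline too (78.8 ± 33.4 against 176.8 ± 21.1, -1.06 ± 0.32, adjusted p = 0.0443). Nr4a3 was too dim to test, with a highest value of 40.6 on its brighter probe set. Nab1 was higher in Mist1KO after caerulein (0.63 ± 0.16, adjusted p = 0.0121), with a smaller difference on its further probe set (0.29 ± 0.14, adjusted p = 0.165).

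Nab2, a corepressor that is itself a target of EGR factors, fell under the filter on dim probe sets and has no test. It read 193.4, 177.6 and 8.8 on the Mist1KO caerulein arrays, against 7.8, 33.5 and 13.4 on the Mist1KO saline arrays. It read 18.1, 4.9 and 6.1 on the WT caerulein arrays, against 7.7, 9.2 and 12.1 on the WT saline arrays. Mist1KO caerulein replicates 1 and 2 lay above all other 10 arrays, replicate 3 included.

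Other lists of the same signalling were set beside the members by their counts. Of 8 AP-1 factors, 3 rose and 0 fell in Mist1KO (4 rose without replicate 3) and 6 rose and 0 fell in WT. The largest rises were those of Atf3 (2.31 ± 0.46 in Mist1KO, adjusted p = 0.00221, and 4.35 ± 0.46 in WT, adjusted p = 1.92e-05) and Junb (1.66 ± 0.31 and 2.51 ± 0.31, adjusted p = 0.00131 and 6.64e-05). Of 26 other immediate early genes tested, 9 rose and 4 fell in Mist1KO (13 and 4 without replicate 3) and 13 rose and 4 fell in WT. Rgs2, a brake on Gq signalling, rose by 2.85 ± 0.46 in Mist1KO (adjusted p = 0.000443) and by 3.39 ± 0.46 in WT (adjusted p = 0.000165). Sgk1, a kinase of ion transport, fell in both, at -1.80 ± 0.33 in Mist1KO (adjusted p = 0.00131) and -1.79 ± 0.33 in WT (adjusted p = 0.00186).

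After caerulein 5 of the 8 AP-1 factors and 12 of the 26 other immediate early genes were lower in Mist1KO than in WT, with 0 and 1 higher. Without Mist1KO caerulein replicate 3 these were 4 and 9 lower. The median log2 difference was -1.04 for the AP-1 factors and -0.65 for the other immediate early genes, beside -0.92 for the 8 members and -0.09 over all named genes.

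Genes that act upstream were counted in the same way. Of 20 genes of the ERK cascade and of SRF, TCF and CREB tested, 7 rose and 1 fell in Mist1KO and 5 rose and 1 fell in WT. Rps6ka3, the kinase RSK2, rose by 2.26 ± 0.33 in Mist1KO (adjusted p = 0.000218) and by 1.43 ± 0.33 in WT (adjusted p = 0.00835). Crem, a cyclic AMP response factor, rose by 1.30 ± 0.22 in Mist1KO (adjusted p = 0.000626) and by 1.89 ± 0.22 in WT (adjusted p = 4.57e-05). Srf itself rose in both, by 1.12 ± 0.26 in Mist1KO (adjusted p = 0.00571) and by 1.46 ± 0.26 in WT (adjusted p = 0.00123). Of 12 phosphatases and other MAP kinase feedback genes, 4 rose in Mist1KO and 5 in WT, and 0 fell. Dusp1, an inactivator of MAP kinases, rose by 2.05 ± 0.57 in Mist1KO (adjusted p = 0.0181) and by 3.85 ± 0.57 in WT (adjusted p = 0.000351).

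**Figure D5:**
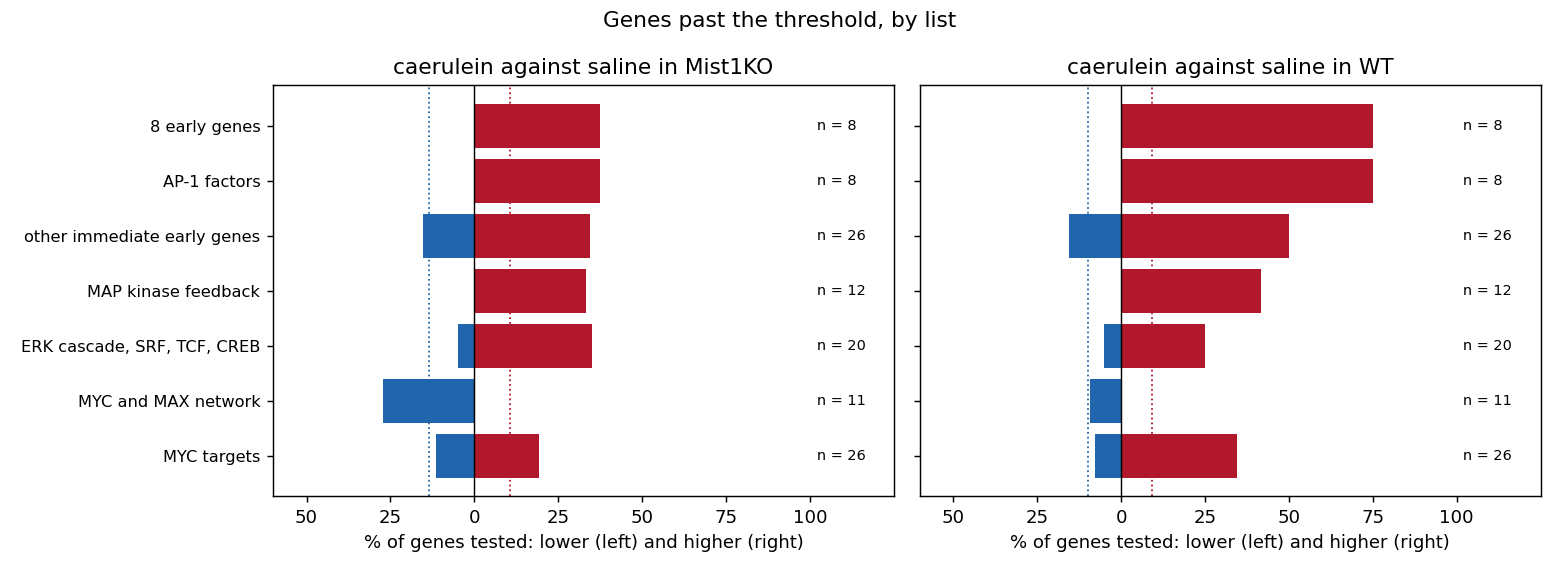
Share of the genes tested in each list (horizontal axis, percent) that were called lower, drawn to the left, or higher, drawn to the right, after caerulein in Mist1KO (left panel) and in WT (right panel), with the number tested. Dotted lines mark the shares over all probe sets, 10.5% higher and 13.4% lower in Mist1KO and 9.19% and 9.74% in WT.

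Around Myc, none of 11 partners and rivals of the MAX network tested rose. In Mist1KO 3 fell, among them Mxi1 (-1.14 ± 0.26, adjusted p = 0.00609), a repressor that competes with MYC for MAX, and in WT Mxi1 alone fell (-1.15 ± 0.26, adjusted p = 0.00741). Of 26 genes taken as MYC targets, 5 rose and 3 fell in Mist1KO and 9 rose and 2 fell in WT. Over all probe sets tested, 10.5% rose and 13.4% fell in Mist1KO, and 9.19% and 9.74% in WT. The falls among the targets, and that of Mxi1 alone in WT, are near these shares. After saline 10 of the 26 were higher and 5 lower in Mist1KO than in WT, where 6.84% and 5.74% of all probe sets were. A link to Myc was not tested. Ldha, lactate dehydrogenase, rose by 1.26 ± 0.16 in Mist1KO (adjusted p = 5.54e-05) and by 1.24 ± 0.16 in WT (adjusted p = 8.82e-05). Cdkn1a, the cell cycle inhibitor p21, which MYC is known to repress, rose by 1.64 ± 0.31 in Mist1KO (adjusted p = 0.00143) and by 2.90 ± 0.31 in WT (adjusted p = 1.98e-05). Nop58, a nucleolar protein, rose by 1.62 ± 0.23 in WT (adjusted p = 0.000273). Ccnd2, a cyclin of the G1 phase, was the sole gene of the list with an interaction past the threshold (-1.39 ± 0.21, adjusted p = 0.00395), at -0.89 ± 0.15 after caerulein in Mist1KO (adjusted p = 0.000617) and 0.50 ± 0.15 in WT (adjusted p = 0.0313).

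Likeness was measured as Pearson's r of log2 values over the 12 arrays, which share their groups and scaling, and is given as a description. The profile of Egr1 was closest to those of Atf3 (r = 0.991), Klf6 (0.98) and Nfil3 (0.979), all transcription factors. Ier2 was closest to Wdr75 (0.981), Desi2 (0.976) and Klf4 (0.97), Ier3 to Tpm4 (0.99), Clic4 (0.985) and Map2k3 (0.984), and Ier5 to Crb3 (0.984), Cebpg (0.978) and Hccs (0.977). Nr4a1 was closest to Cpeb2 (0.935), Epha2 (0.926) and Klf4 (0.919), and Nr4a2 to Acss1 (0.971), Irak1 (0.963) and Grn (0.96). Myc was closest to Zfp36l1 (0.967), Ddx5 (0.914) and Zfp110 (0.877), and Egr2 to Clasp2 (0.949), Ubtd1 (0.9) and Sox9 (0.892). Among the members, Egr1 ran with Ier2 (0.961), Ier5 (0.956), Nr4a1 (0.891) and Ier3 (0.884), less with Myc (0.6) and Egr2 (0.544), and least with Nr4a2 (0.369).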

How the data were processed

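Linear signal intensities, one value for each probe set on each array, were used as the authors deposited them. Trimmed means (2% off each end) lay between 151.08 and 151.37 on all 12 arrays, so a common scaling had been applied. None of the sources used here names the software or gives detection calls. Precision is limited by having 3 arrays a group. Overlap between groups is given as a description, and the share of all probe sets without overlap was not counted. Of 22516 probe sets, 64 are controls. Symbols came from the platform annotation, and gene locations and promoters from RefSeq.

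Signals were moved to log2 after adding 18.7, which is their 20th percentile. Controls and the dim probe sets, those with a mean no higher than the 30th percentile, were left out, and 15716 remained. limma (version 3.58.1, R version 4.3.3) estimated the 4 group means from the 12 arrays together, with lmFit and eBayes and its trend option. Tests were two-sided, with Benjamini-Hochberg adjustment over all probe sets tested and a threshold of 0.05. The fit was tested on simulated data. Plots were made in Python 3.11.15 using matplotlib 3.10.9.

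All 8 members are named with every probe set. From other lists, at most the 2 largest rises and 2 largest falls per caerulein comparison are named, and all EGR, NR4A and NAB genes. The members and lists were chosen with earlier results of these data known. The series describes the pancreata as biological replicates, 3 a group. The p-values rest on the spread between pancreata within groups, estimated over all 4 groups together and moderated by limma. They do not measure the spread of the compared groups alone, so an array of another group can move them. Alternatives were other offsets, filters and scalings, no trend, fits of 2 groups, a replicate block and leaving out each array. List counts without Mist1KO caerulein replicate 3 were added after seeing the data.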

Additional observations from a re-analysis of the deposited data

Results flagged for a closer look

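The response to caerulein differed between Mist1KO and WT by the interaction test for 2 of the 8 genes. For Ier2 the log2 interaction was -2.67 ± 0.45 (limma adjusted p = 0.00622), and it was lower than 0 in all 21 alternatives, with adjusted p-values of 0.00288 to 0.0222. Without Mist1KO caerulein replicate 3 it was -2.20. For Myc it was -1.69 ± 0.30 (adjusted p = 0.00774), with adjusted p-values of 0.00619 to 0.026 over the alternatives. The Myc value combines genotype differences of -0.98 after caerulein and 0.71 after saline. No outlier test was run on single arrays, since each group has 3.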

How the results depend on the processing

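Over 22 alternative analyses, 40 differences of the members were recomputed, and 839 of 867 values kept their direction, or were uncalled on both sides, and stayed on the same side of the threshold. The count of members called in Mist1KO after caerulein was 3, and 3 to 6 when single arrays were left out, 6 without Mist1KO caerulein replicate 3. For Mist1KO against WT after saline it was 1, and 0 with no filter on dim probe sets, no intensity trend, the replicate block or a fit of the 2 groups alone, and 0 to 1 when single arrays were left out (1 without WT saline replicate 1, WT caerulein replicates 1 or 2, or Mist1KO caerulein replicate 3). Probe sets called there numbered 1977, and 1063 to 2066 when single arrays were left out, with 1164 without WT saline replicate 2, 1070 without Mist1KO saline replicate 1 and 1063 without Mist1KO saline replicate 3. For the interaction they numbered 518, then 328 with no intensity trend, and 271 to 553 when single arrays were left out, with 271, 300, 273, 310 and 343 without Mist1KO caerulein replicates 1 and 2, Mist1KO saline replicates 3 and 1 and WT caerulein replicate 2. The caerulein response of Ier5 in Mist1KO was -0.17 on a further probe set. The causes were not tested.

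The replicate numbers showed no pairing over all probe sets tested. Over 18 pairs of same-numbered arrays the deviations from the group means correlated between -0.104 and 0.0452. Pairing within a small set of genes, such as the members, was not tested. With the replicate block Myc lost its call after saline (0.71, adjusted p = 0.0628) and the interaction of Egr1 passed (-2.40, adjusted p = 0.0243). The median difference between caerulein and saline over all probe sets tested was -0.131 in Mist1KO and -0.144 in WT. With arrays centred on the median, caerulein called 1987 probe sets higher and 1337 lower in Mist1KO, against 1654 and 2110 as deposited, and 1760 and 836 in WT, against 1444 and 1531. Mist1KO against WT gave 1927 higher and 1190 lower after caerulein, against 1579 and 1598, and 1401 and 558 after saline, against 1075 and 902. Without detection calls, signal over background of dim probe sets such as Egr2 is unknown.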
